A study of Mus musculus with 4 samples.

Results

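The STEAP metalloreductases and the core genes of cellular iron handling were measured in cultured mouse aortic smooth muscle cells with and without prostaglandin E2 (PGE2). The set holds 10 genes, taken by symbol from the deposited signal table: Steap1, Steap2, Steap3 and Steap4, the transferrin receptor gene Tfrc, the ferrous iron importer gene Slc11a2, the iron exporter gene Slc40a1, the ferritin subunit genes Fth1 and Ftl1, and the hepcidin gene Hamp. They carry 17 of the 56605 probes of the array and are 10 of its 27278 named genes. The genes were picked as a family by name with the differences between PGE2 and control on these same arrays in view, so those differences are given as a description and no p is given for them. The fit's calls in the set are stated as counts beside the share over all genes, and nothing is read from them.

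Vascular smooth muscle cells (VSMCs) of the aorta, from C57BL/6J mice of a genotype labelled EP4-Tg, were grown out of adult vessel explants. EP4 is a Gs-coupled receptor for PGE2, and all 4 cultures carried the genotype, controls included. What drives the transgene, the dose of PGE2 and cells without the transgene are not given in the sources used here. The control group was 2 cultures left untreated for 24 h and the PGE2 group was 2 cultures treated for 24 h, with 1 single-colour Agilent array each.

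Iron enters most cells as ferric iron on transferrin, which binds the transferrin receptor and is taken into endosomes. There it is reduced to ferrous iron by STEAP proteins, membrane enzymes that pass electrons from NADPH inside the cell to ferric or cupric ions, and leaves the endosome through DMT1, the product of Slc11a2. Iron that is not used is stored in ferritin shells of heavy and light chains or leaves through ferroportin, the product of Slc40a1, which the hormone hepcidin removes from the cell surface. Steap3 is the endosomal ferrireductase best known from red cell precursors, Steap4 is a family member known to be induced by inflammatory cytokines, and Steap1 lacks the NADPH-binding domain of the others.

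Values are log2 of the processed spot intensity minus the 75th percentile of the same array, so 0 is the brightness of that percentile and 1 unit is a doubling. No spot was saturated, and 47.9% to 53.8% of the spots of each array were detected well above background. Of the 17 probes of the set, 11 were well above background on all 4 arrays, 15 passed the filter on dim probes (above background on both arrays of a group) and 2 were above background on no array. Of the 10 genes, 9 were therefore tested in the fit across all 17660 genes or unnamed probes, and Hamp was not. With 2 arrays in each group an exact permutation test of a single gene cannot go below p = 0.33, two-sided. The series calls the cultures biological replicates, but nothing in the labels places them in separate animals, so errors speak for these 4 cultures only. Errors are those of the limma fit, which also draws on the spread of the other tested genes. They are thus not a gene's own spread alone. RNA came from whole cultures, in which fewer cells of a type and less RNA per cell cannot be told apart.

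Steap4 had the largest measured difference of the set with the main values, though not with normexp background correction. Its probe read -4.94 and -4.65 in the control cultures and -1.47 and -1.76 with PGE2. The groups were far apart and the cultures within each were close. Both control spots, at 16.5 and 23.8 intensity units, lay under the dimmest signal well above background on those arrays (31.2 and 48.4 units), while the PGE2 spots read 218 and 185 units. The control level is thus only a bound. Set against that dimmest signal, on the main values, Steap4 was at least 4.64-fold higher with PGE2. The measured difference, partly from signals below background, was 3.19 ± 0.21 on the log2 scale (SE of the limma fit, n = 2 per group). With normexp background correction, a setting that also adds 50 units to every spot, it was 1.57. That is less than the bound and less than the 1.97 of Steap1 in the same setting.

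Steap1 was well above background on all 4 arrays. It read 0.44 and 1.84 in the control cultures and 3.33 and 3.04 with PGE2. Both PGE2 cultures lay above both controls, but the controls themselves differed by more than the PGE2 cultures did. The difference was 2.04 ± 0.52 on the log2 scale, or 4.12-fold (n = 2 per group). It came to 1.34 without control replicate 1 and to 2.74 without control replicate 2, so its size depended on which control was used.

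Steap2 encodes a reductase of the Golgi and plasma membrane and has 2 probes. The brighter read 0.47 and 1.39 in the controls and 1.63 and 1.70 with PGE2, and the dimmer read -4.29, below background, and -3.13 in the controls and -2.52 and -2.19 with PGE2. On both probes the PGE2 cultures lay above the controls and control replicate 1 was the lowest culture. The differences were 0.74 ± 0.35 and 1.35 on the log2 scale. That of the brighter probe was 0.28 without control replicate 1 and 1.20 without control replicate 2.

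Steap3 read -0.95 and -0.71 in the controls and -0.89 and -0.25 with PGE2. Its groups overlapped, and the difference of 0.26 ± 0.28 turned to -0.06 without PGE2 replicate 2. The 3 STEAP genes whose PGE2 cultures lay above the controls share the cytoband 5qA1, while Steap3 lies in 1qE2.3. In RefSeq's gene order for GRCm38.p6, from which no gene coordinates were taken, Steap2 and Steap1 are direct neighbours, and 16 further genes, 3 of them protein-coding, separate Steap1 from Steap4. None of these 16 was tested, although the array has probes for Zfp804b, Tex47 and Gm5984 among them. Whether the difference extends over the region was therefore not tested.

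**Figure D1:**
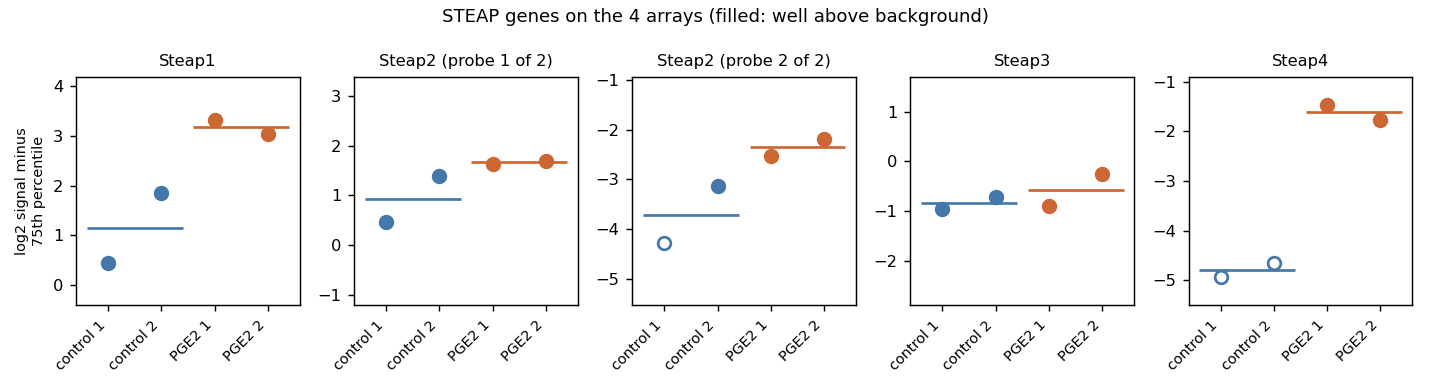
Log2 signal relative to the 75th percentile of each array for the 5 STEAP probes, with control arrays in blue, PGE2 arrays in orange and a line at each group's mean (n = 2). Open circles are spots not well above background. The Steap4 controls sit near -5 against PGE2 values of -1.47 and -1.76, and every panel spans the same range of log2 units.

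The sequences before the start sites of Steap4 and Steap1 are shown because these genes had the 2 largest differences. They are the 250 bases upstream of the RefSeq start in assembly GRCm38.p6, read 5′ to 3′ along the gene, and capitals mark matches to the searched motifs on either strand. Steap4 lies on the plus strand (chr5:7960222-7960471) and Steap1 on the minus strand (chr5:5749318-5749567).
Steap4: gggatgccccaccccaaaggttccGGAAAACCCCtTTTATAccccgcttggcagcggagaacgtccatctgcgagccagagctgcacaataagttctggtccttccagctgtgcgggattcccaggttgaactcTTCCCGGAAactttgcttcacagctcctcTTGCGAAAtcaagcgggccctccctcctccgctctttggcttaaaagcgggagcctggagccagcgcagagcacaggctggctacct
Steap1: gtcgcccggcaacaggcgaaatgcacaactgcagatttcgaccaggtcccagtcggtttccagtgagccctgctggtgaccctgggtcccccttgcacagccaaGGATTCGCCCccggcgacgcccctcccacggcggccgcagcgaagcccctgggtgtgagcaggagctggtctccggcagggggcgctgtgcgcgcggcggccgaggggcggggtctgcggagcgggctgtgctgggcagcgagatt
The Steap4 window held 1 match each to an NF-kB-type site (GGG, any 4 bases, TCC), a TATA box (TATAAA), a STAT-type site (TTCNNNGAA) and a C/EBP-type site (TTGCNNAA), whose first bases lay 226, 215, 116 and 87 bases before the start. The Steap1 window held 1 NF-kB-type match, 146 bases before the start. These letters were not particular to the 2 genes. Windows of Steap2 and of Steap3, whose groups overlapped, held the NF-kB-type letters too. The STAT-type letters were also in Steap2 and Hamp windows, the C/EBP-type in Steap3 and Fth1, and the TATA box in Steap2 and Fth1. Of 32851 RefSeq windows of this length, 16.5% held the NF-kB-type letters, 12.4% the TATA box, 7.02% the STAT-type and 9.56% the C/EBP-type letters.

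The letters of the full cyclic AMP response element (TGACGTCA, in 1.55% of windows) were in none of the 15 windows found for 8 of the 10 genes, and its shorter core (TGACG, contained in the full element, in 17.8%) was in 1 of the 3 Steap2 windows and 1 of the 2 Tfrc windows. The core of the antioxidant response element (TGACNNNGC, in 10.2%) matched once, in another Steap2 window. The E-box (CACGTG, in 6.02%) matched none. The 8 motifs were chosen with the expression values known, and a match of letters is no measurement of binding.

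Steap1 had the largest difference among the STEAP genes measured on all 4 arrays. It was compared with other named tested genes by the distance between their 4 array values, each gene centred on its own mean. Clone, probe, LOC, Gm-number, Rik and similar names were left out of the comparison. Among the nearest were Epha4, an ephrin receptor gene, at a distance of 0.32 log2 units, and Enpp1, whose enzyme makes pyrophosphate, at 0.33. The pseudogene Slfn10-ps lay at 0.37 and Greb1l at 0.40. Slfn10-ps read -4.73 in control replicate 1, under the dimmest signal well above background on that array (-4.02). Epha4 read -2.02 and -0.77 in the controls and 1.06 and 0.83 with PGE2, with the same order of the 4 arrays as Steap1. Of the 14310 named genes tested, less the names left out, 21 lay within 0.5 of Steap1, over 4 arrays only.

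Of the genes of iron uptake, Tfrc encodes the transferrin receptor. Its brighter probe read -1.61 and -3.00 in the controls and -2.50 and -1.60 with PGE2. Its dimmer probe read -2.15 and -3.67, the latter below background, in the controls and -3.50 and -2.22 with PGE2. Both probes put control replicate 1 and PGE2 replicate 2 high and the other two cultures low, so that the groups overlapped. The difference was 0.25 ± 0.60 on the brighter probe and 0.05 on the dimmer one. It turned to -0.44 without control replicate 2 and to -0.20 without PGE2 replicate 2, and was 0.95 without control replicate 1.

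Slc11a2, which encodes the importer DMT1, has 4 probes, all with PGE2 cultures above control cultures. The brightest read -0.12 and -0.47 in the controls and 0.34 and 0.03 with PGE2, a difference of 0.48 ± 0.22 on the log2 scale or 1.39-fold. The one whose listed accession is another transcript, NM_001146161 in place of NM_008732, read -3.11 and -2.90 against -2.23 and -1.94, with the largest difference of the 4 at 0.92. The remaining pair of probes differed by 0.72 and 0.59, the latter on a probe below background in control replicate 2. The probes share cultures and arrays, so their common direction is not independent evidence. Without any 1 array the brightest probe's difference stayed between 0.31 and 0.65.

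Of the genes of iron export, Slc40a1 encodes ferroportin. Its measured probe read -2.53 and -2.73 in the controls and -3.28 and -4.44 with PGE2, or 88.0 and 90.4 against 61.7 and 28.8 intensity units. The reading of 28.8 units, in PGE2 replicate 2, lay close to the dimmest signal well above background on that array (25.2 units). The PGE2 cultures lay below the controls and differed between themselves by more than the controls did. The difference was -1.23 ± 0.43 on the log2 scale, a 2.35-fold lower level, and it was -0.65 without PGE2 replicate 2 and -1.81 without PGE2 replicate 1. It was -0.63 with normexp background correction, a setting that also adds 50 units to every spot and starts from median spot signals. A second probe, made to another transcript, was above background on no array.

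Hamp encodes hepcidin, a hormone made mainly by the liver. Its probe read 6.60 and 10.6 intensity units in the controls and 7.94 and 5.33 with PGE2, below background on all 4 arrays, so no difference is given. The second Slc40a1 probe read nearly the same (6.73, 10.6, 8.01 and 5.34 units), which is the level of probes without detected signal on these arrays. Probes above background on no array (24359 in all) had a median difference of -0.52 with PGE2.

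The ferritin genes were the brightest readings of the set. Fth1, the heavy chain with ferroxidase activity, read 8.35 and 7.88 in the controls and 8.09 and 7.80 with PGE2. Ftl1, the light chain that aids the formation of the iron core, read 8.75 and 8.33 against 8.46 and 8.21, and on its other probe 6.44 and 5.77 against 6.06 and 5.77. On all 3 probes control replicate 1 was the highest culture and the groups overlapped. The differences were -0.17 ± 0.24 for Fth1 and -0.21 ± 0.22 and -0.19 for Ftl1. The sign of Fth1 and of the brighter Ftl1 probe turned with quantile normalization (0.15 and 0.10) and on the authors' scaled signal (0.09 and 0.05), where the median of all genes also stood at 0.23. Without control replicate 1 the differences were 0.07 for Fth1 and 0.00 for Ftl1, and without control replicate 2 both were -0.41. Both genes have many near-identical processed copies in the genome, so their values are uncertain as to source.

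**Figure D2:**
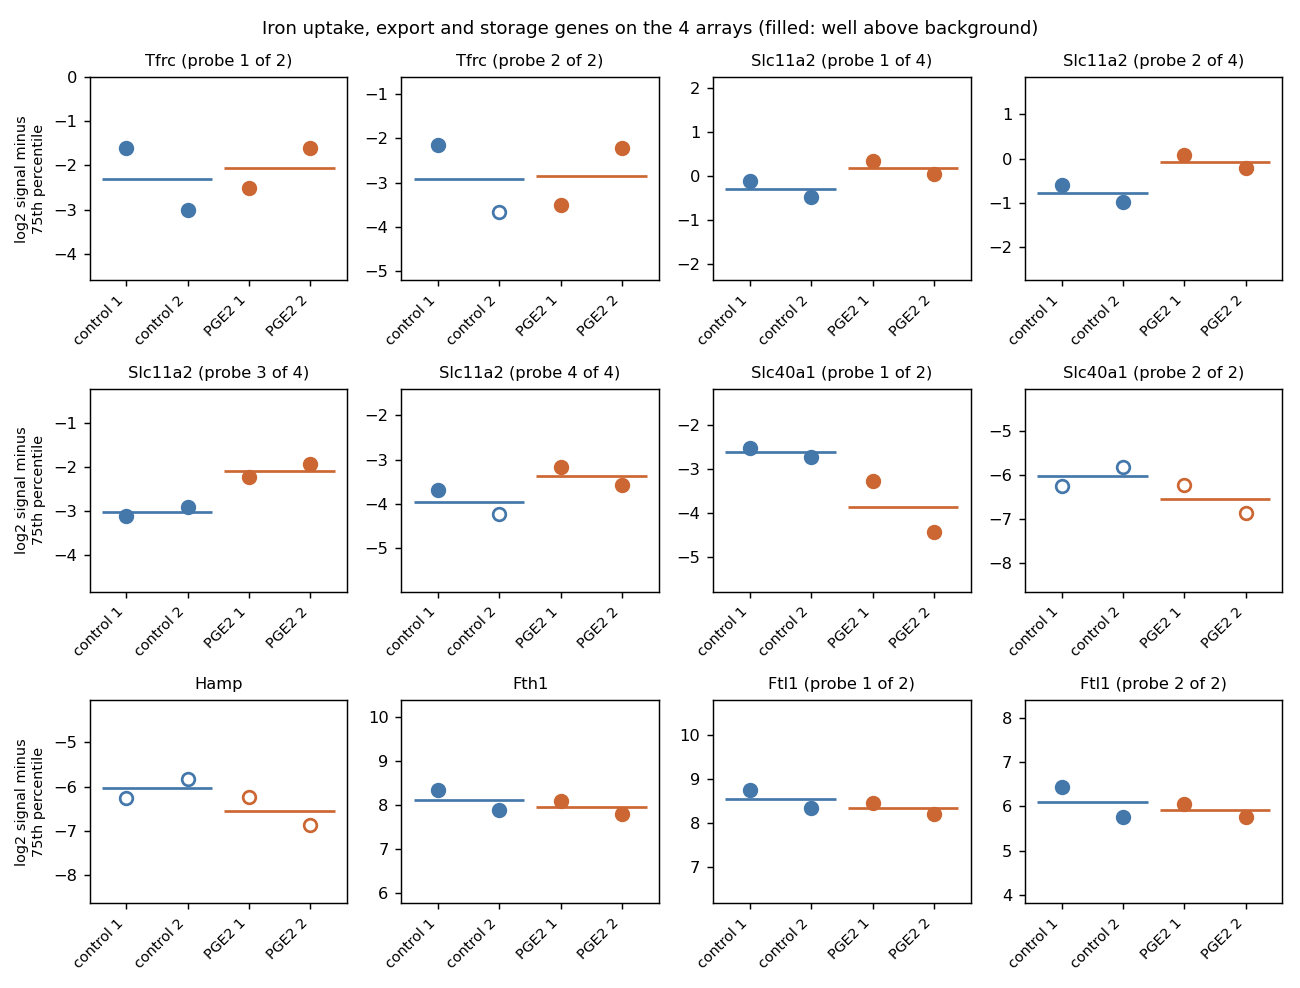
Log2 signal relative to the 75th percentile of each array for the 12 probes of Tfrc, Slc11a2, Slc40a1, Hamp, Fth1 and Ftl1, drawn as in the plot of the STEAP probes, with every panel spanning the same range. The 4 Slc11a2 panels each have the PGE2 arrays above the controls, the measured Slc40a1 probe has them below while its undetected probe overlaps, and in both Tfrc panels control 1 and PGE2 2 are the high arrays.

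In the limma fit across all 17660 genes, 118 genes passed an adjusted p of 0.05 (0.668% of those tested), of which 70 (0.396%) were higher and 48 (0.272%) lower with PGE2. Of the 9 tested genes of the set, 1 was among them, Steap4, as higher. The choice of the set had this contrast in view and Steap4 entered the fit through its PGE2 arrays alone, so that call is no test of it and nothing is read from the count. Steap4 did not pass on the authors' scaled signal, with the percentile taken over probes above background on all arrays, without a filter on dim probes, or without control replicate 1, control replicate 2 or PGE2 replicate 1. In 4 of the 9 genes both PGE2 cultures lay above both controls, which was so in 24% of all tested genes, and in 1 of 9 below, against 28.3%. The median difference of the 9 was 0.26, beside -0.03 over all tested genes.

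**Figure D3:**
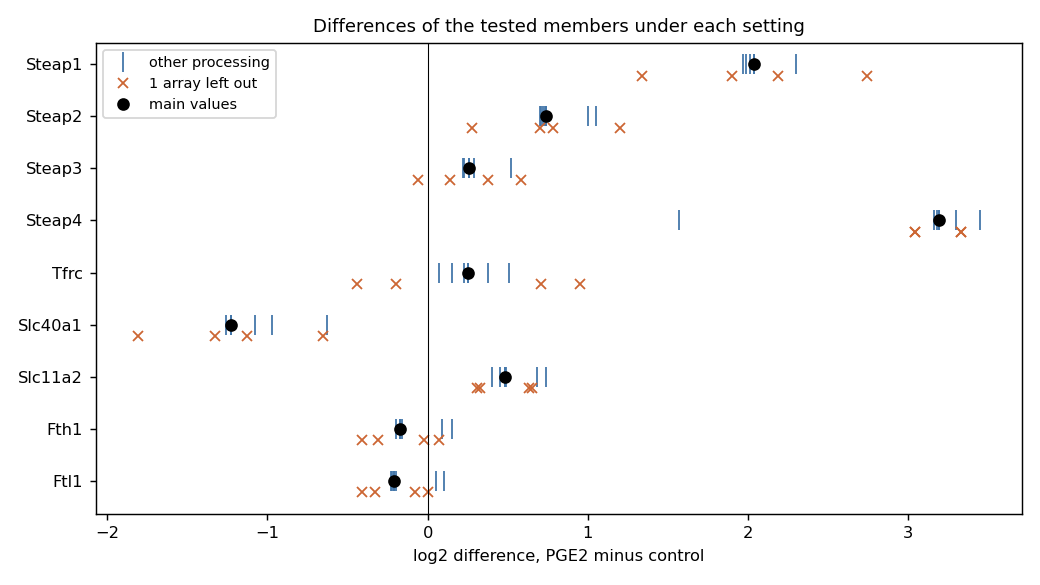
Log2 difference, PGE2 minus control, of the 9 tested genes with the main values (black), with other processing including the replicate block (blue) and with 1 array left out (orange). Steap4, Steap1, Steap2 and Slc11a2 stay above 0 and Slc40a1 below 0 in every setting drawn, while Tfrc, Steap3, Fth1 and Ftl1 take both signs. The groups of Steap4, Steap1, Steap2, Slc11a2 and Slc40a1 do not overlap, so leaving out 1 array or adding the block could not turn their sign. For Steap4 the value of 1.57 is that with normexp background correction.

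The wider pathway was taken from 10 lists of other iron, heme and copper genes, 74 in all, of which 65 were tested. None was called higher or lower (limma, Benjamini-Hochberg adjustment over all genes), and 6 of the 65 reached an unadjusted p of 0.05, beside 3151 of all 17660 tested. The median difference of the 65 was 0.06, and 53 differed by less than 0.5 on the log2 scale. Their PGE2 and control cultures did not overlap in 47.7%, against 52.2% of all tested genes.

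Among other uptake genes, Lcn2, which encodes lipocalin 2, a secreted protein that binds iron-carrying siderophores, read -2.40 and -1.67 in the controls and 0.45 and 1.59 with PGE2. Its groups were well apart, at 3.05 ± 0.49 on the log2 scale (adjusted p = 0.103, limma). A second Lcn2 probe was below background in both controls and read -2.15 and -0.70 with PGE2. The second transferrin receptor gene Tfr2, known mainly from liver and red cell precursors, was below background in both controls (-4.95 and -3.38) and above it in both PGE2 cultures (-2.81 and -3.69), with overlapping signals (adjusted p = 0.516, limma). The other 5 uptake genes, among them the ferrous iron importers Slc39a8 and Slc39a14, did not pass either.

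Transferrin itself, Trf, the ligand of Tfrc, is named here after its values were seen. It read -1.79 and 1.49 in the controls and -0.06 and 2.03 with PGE2. The cultures numbered 2 were high and those numbered 1 low in both groups, on a second probe as well (-3.35 and 0.09 against -1.35 and 0.58). The array order thus differed from that of its receptor.

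Of 5 other reductase genes, Cyb561, a cytochrome b561 of secretory vesicles, read 1.98 and 1.35 in the controls and 3.48 and 2.39 with PGE2, at 1.27 ± 0.46 (adjusted p = 0.276, limma). Its difference was 0.73 without PGE2 replicate 1 and 1.81 without PGE2 replicate 2. Cyb561a3, a lysosomal relative, stood at -0.31 ± 0.16 (adjusted p = 0.393, limma). Among 3 tested storage and ferritin turnover genes, the iron chaperone genes Pcbp1 and Pcbp2 stood at 0.09 and -0.18, and each changed sign in 1 alternative. In the export list of 2 tested ferroxidase genes, Cp stood at -1.16 ± 1.42 (adjusted p = 0.704, limma) and Heph at -0.19 ± 0.49. Without PGE2 replicate 1 both turned, to 0.64 for Cp and 0.40 for Heph, and the probes read here were each above background on 1 of 2 PGE2 arrays. Another Cp probe, above background on all 4 arrays, read -2.98 and -2.82 in the controls and -3.55 and -3.26 with PGE2, a difference of -0.51.

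The iron-regulatory proteins bind iron-responsive elements in the messages of ferritin, ferroportin and the transferrin receptor. Ireb2, which encodes the second of them, read 1.01 and 1.13 in the controls and 1.62 and 1.70 with PGE2, at 0.58 ± 0.16 (adjusted p = 0.196, limma). Aco1, which encodes the first, stood at 0.14 ± 0.15, and Fbxl5, whose product marks Ireb2 protein for breakdown, did not pass. In the hepcidin control list, with 4 genes tested of 7, Bmp6, the ligand that induces hepcidin in liver, read -2.83 and -2.05 in the controls and was below background in both PGE2 cultures. Set against the dimmest well-detected signal, on the main values, it was at least 3.72-fold lower (adjusted p = 0.117, limma). With normexp background correction its log2 difference was smaller, at -1.09, which is less than that bound. Tmprss6, a protease that lowers hepcidin, stood at 0.94 ± 0.34 (adjusted p = 0.281, limma), and between 0.54 and 1.34 with 1 array left out.

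The mitochondrial, heme synthesis and copper genes tested all lay within 0.5 of 0. All 15 tested genes of mitochondrial iron and iron-sulphur clusters lay between -0.48, for the cluster assembly gene Lyrm4, and 0.41, for the iron carrier gene Slc25a37, with a median of 0.00. Of the 8 tested heme synthesis genes, Alad stood at -0.24, or at 0.02 on the authors' scaled signal. The 10 tested copper genes lay between -0.38 and 0.42, the latter for the copper pump gene Atp7a, and the copper importer gene Slc31a1 stood at 0.41 ± 0.16.

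In the list of heme breakdown and transport, Hp, which encodes the haemoglobin-binding protein haptoglobin, read -0.21 and 0.94 in the controls and 4.11 and 4.47 with PGE2. Both PGE2 cultures were far above both controls, at 3.93 ± 0.45 on the log2 scale, or 15.2-fold, which did not pass (adjusted p = 0.0642, limma). Blvrb, a biliverdin reductase gene, stood at -0.64 ± 0.16 (adjusted p = 0.182, limma). Hmox1, the inducible heme oxygenase gene, named here after its values were seen, read 4.17 and 2.19 in the controls and 3.39 and 2.93 with PGE2, with the controls on either side of the PGE2 cultures. None of the 8 tested genes of the list passed.

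**Figure D4:**
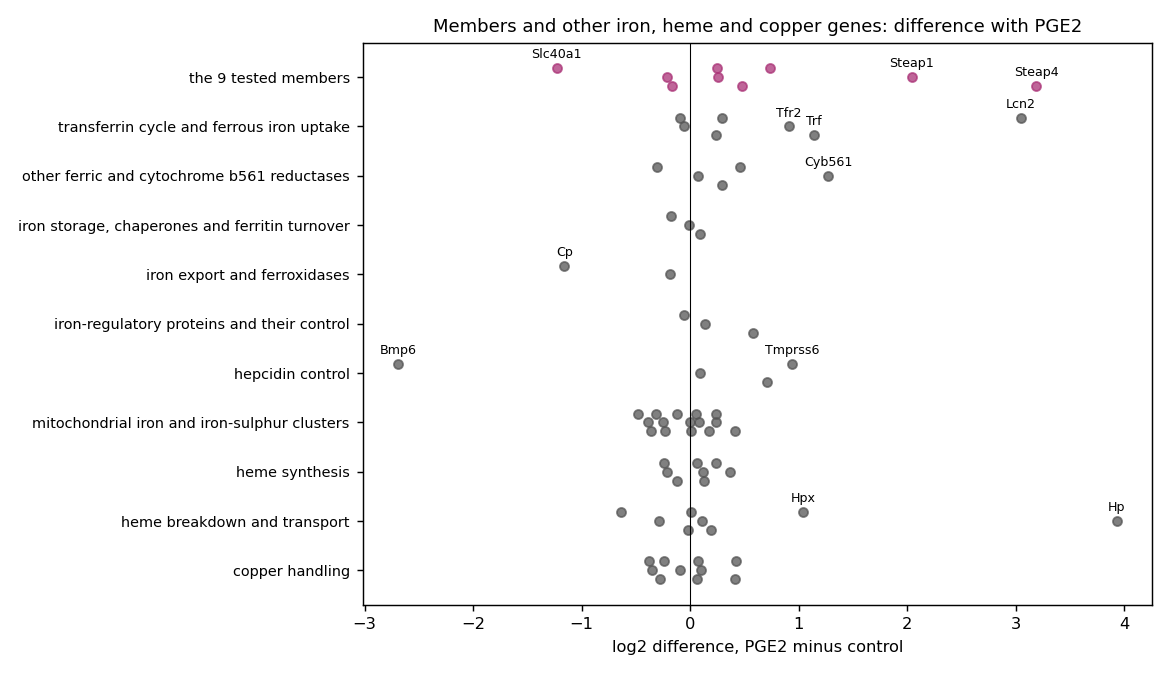
Log2 difference, PGE2 minus control, of the 9 tested genes of the set (purple) and of the tested genes of 10 other iron, heme and copper lists (grey); each point is a gene, with names given beyond 0.9 in either direction. The mitochondrial, heme synthesis and copper lists stay within 0.5 of 0, while Steap4, Steap1, Lcn2 and Hp lie above 2 and Bmp6 below -2.

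Markers of cell types were read by each gene's best-detected probe. Of 8 smooth muscle markers, 5 were above background on all arrays, and their summed linear signal (in multiples of the 75th percentile) was 409 to 717 in controls and 129 to 173 with PGE2. Acta2 and Tagln, which made up most of that sum, stood at -2.10 and -1.79. Cnn1 stood at -2.26, Itga8 at -4.88 and Smtn, whose groups overlapped, at -0.33. Des and Lmod1, each above background on 1 array, stood at 0.67 and -3.39. Myh11, the myosin that defines contractile smooth muscle, was above background on all 4 arrays with no probe. The fibroblast markers summed to 94.0 to 200 against 22.9 to 29.9 (4 of 6 above background on all arrays, Dpt on none). Of those 4, Dcn, the brightest, stood at -2.91 and Lum at -2.17, while Pi16 stood at 2.78 and Pdgfra at 0.60. The macrophage markers summed to 63.8 to 77.8 against 41.3 to 61.4 (5 of 7 above background on all arrays), with the defining genes Adgre1 and Lyz2 above background on no array. Itgam, by far the brightest of the 5, stood at -0.61 and Ptprc at -0.36, while Cd68 stood at 2.09, Csf1r at 0.98 and Cd14 at 0.62. Of the 7 probes of the leukocyte gene Ptprc, 1 was well above background, and it was so on all 4 arrays. The same held for 1 of the 2 Itgam probes, which made up most of the macrophage sum. The endothelial markers summed to 0.226 to 0.463 against 0.178 to 0.284, with Tek and Emcn above background on no array. Pecam1, the only one above background on all 4 arrays, stood at -0.15. The highest sum, in control replicate 1, came mostly from Kdr. That gene was above background on 1 array and read -1.75 in control replicate 1 and -5.91 in control replicate 2. Of 5 red cell markers 4 were above background on no array. The part of these marker shifts in the values of Steap4, Steap1 and Slc40a1 was not tested.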

How the data were processed

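The scanner files as deposited give each spot's intensity, extracted with Agilent Feature Extraction 11.5.1.1 and protocol GE1_1105_Oct12 for design 074809 with probe positions on build mm9, per the file headers. The version in the submitters' processing notes is 12.0.3.1. In the deposited table of the series the authors multiplied that intensity by a constant for each array. It was used for symbols, cytobands and as an alternative, and its 4 other columns of values per sample were not used. Per the labels' protocols, total RNA was labelled with Cy3 by the Low Input Quick Amp kit. All 4 arrays share 1 scan identifier.

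Spots of 1 probe were averaged, 158 probes with outlier flags were left out, log2 values were set against each array's 75th percentile, and 26100 probes above background on both arrays of a group were kept. Each gene's brightest kept probe stood for it, and symbols were updated through gene IDs of the RefSeq table. The percentile scaling hides a change shared by most transcripts, and dim values are noisy. The floor for bounds on an array was the higher of its dimmest well-detected signal and the probe's own, and a bound compares mean log2 values. The PGE2 and control cultures were compared with limma (3.58.1, R 4.3.3, tables read with version 1.17.8 of data.table) without a block, with 2 residual and 2.15 prior degrees of freedom, and the steps were tested on simulated data.

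The genes and lists were chosen with earlier results of these data known. Named were all genes of the set, called genes of the other lists and the 2 with the smallest p per list, and 5 genes nearest to Steap1. The alternatives were quantile normalization, median centring, another percentile, normexp (on median spot signals, since the files hold no mean signal), the authors' scaled signal, other filters on dim probes, the mean of a gene's probes, leaving out each array, and a replicate block. Some genes that these rules would name are not reported here.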

Additional observations from a re-analysis of the deposited data

How the results depend on the processing

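Limits are 2 arrays per group and, for Steap4, Slc40a1, Bmp6, Hamp and the dimmer probes, signals near or below background. Steap4 stood at 1.57 (normexp) to 3.45 (authors' scaled signal) in the 12 alternatives that tested it. Steap1, Steap2, Slc11a2 and Slc40a1 kept their sign in all 13. In these genes the groups did not overlap, so leaving out 1 array could not turn the sign. The replicate block leaves the difference as it was, and Steap4 entered the fit through its PGE2 arrays alone. The sign in those settings is therefore no check on the differences. The 70 higher and 48 lower genes, with 1 of them in the set (Steap4), became 0, 0 and 0 with the percentile over probes above background on all arrays, on the authors' scaled signal and without the filter on dim probes (3520, 4204 and 2685 genes at an unadjusted p under 0.05 in limma). They became 39, 15 and 0 with the filter on all 4 arrays, which leaves Steap4 untested. With 1 array left out, where a lone array is assumed to vary like the other group, higher genes ranged from 0 to 98, lower genes from 0 to 76 and those in the set from 0 to 1. Both counts were 0 without control replicate 1 and without control replicate 2. Of the other iron, heme and copper genes, 0 were called with the main values and with any 1 array left out, but 1 was with normexp (Hp).

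Equal replicate numbers are not said to mark shared cultures. Deviations of same-numbered cultures from their group means correlated at 0.424 across all tested genes and at -0.243 across the 9 tested genes of the set. With the replicate block, 88 genes were higher and 84 lower, of which 84 in all were among the 118, and 1 gene of the set (Steap4) and 3 other iron genes (Bmp6, Hp and Lcn2) were called. The cause of these shifts was not tested.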

Other observations

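Hamp2, a gene related to Hamp, was on 1 probe well above background in PGE2 replicate 1 alone, at -1.71. That probe read -6.30 and -5.91 in the controls and -6.94 in PGE2 replicate 2. The detected signal is a single spot on a single array, and Hamp2 was not tested.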
